A study of Homo sapiens with 2 samples.

Results

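The genes described are the RecQ DNA helicases BLM, WRN, RECQL, RECQL4 and RECQL5, the remaining subunits of the BTR complex (TOP3A, RMI1 and RMI2), and the helicases RTEL1 and PIF1. They were chosen by symbol from the deposited expression table, and all 10 were found among its 18141 symbols, each in 1 row. The table covers 2 RNA libraries of U2OS, an established human osteosarcoma line, from asynchronously growing cells kept for 18 h in 0.3 µM aphidicolin, a drug that blocks the replicative DNA polymerases. The wider series maps where DNA is still being made in mitosis and where fragile sites lie. Both libraries are replicates of 1 treated group, no untreated library was analysed here, and the values below are therefore levels and not responses to the drug. Separate cultures are not named in the labels, and the difference between replicates may be technical.

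RecQ helicases unwind DNA at stalled forks and at recombination intermediates, and the family is often described as a guardian of the genome. BLM joins the topoisomerase TOP3A and the scaffold proteins RMI1 and RMI2 in the BTR complex, which takes apart joined DNA molecules without crossing over and acts on the ultrafine DNA bridges of anaphase. RTEL1 dismantles displacement loops, telomere loops and quadruplex DNA, and PIF1 unwinds quadruplexes and other barriers to DNA synthesis. U2OS cells keep their telomeres by a recombination pathway that does not need telomerase, in which BLM and its complex are known to act.

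Levels are in the unit the authors deposited, RPKM, which divides reads by the length of a gene's exons and by the size of the library. Because both columns derive from whole read counts, the reads behind them could be recovered, and they came to 13227805 for replicate 1 and 13020149 for replicate 2. Counting intervals below are exact Poisson intervals at 95% and cover counting error only. Levels are given as mean ± SD of the 2 libraries. An SD of 2 values can fall well below counting error, so a small SD here is no sign of precision. Of the markers of bone-forming and mesenchymal cells, SPARC averaged 280 RPKM, VIM 249 RPKM, COL1A1 209 RPKM, RUNX2 8.55 RPKM and ALPL 2.23 RPKM, whereas BGLAP was at 0.277 RPKM and SP7 and IBSP were not listed. Of the markers of other cell types, EPCAM at 2.28 RPKM and CD3D at 1.11 RPKM passed 1 RPKM in both libraries, EPCAM at about the level of ALPL. The others did not, with CDH1 at 0.812 RPKM, PECAM1 at 0.276 RPKM, PTPRC at 0.145 RPKM and CDH5 at 0.0624 RPKM.

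By the deposited values, the 10 genes fell into 4 tiers in these treated cells. The place of WRN may turn with the exonic length used, as given under PIF1. RECQL4 and RECQL were highest, the BTR subunits RMI1, BLM, TOP3A and RMI2 lay close together with PIF1 just below them, WRN and RECQL5 were lower, and RTEL1 was far below the rest. At 1 RPKM in both libraries, the level taken here as expressed, 9 of the 10 genes passed and RTEL1 did not. Among all 17912 entries 66.7% passed, and of the 15585 protein-coding entries 72.9% passed. The median of the 10 means was 9.67 RPKM, against 3.53 RPKM over all entries and 4.83 RPKM over protein-coding entries. The highest mean was 212 times the lowest across the 10 genes (82.4 times with exons shared with other genes left out of the length), and 10.4 times the lowest among the 5 RecQ helicases.

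**Figure D1:**
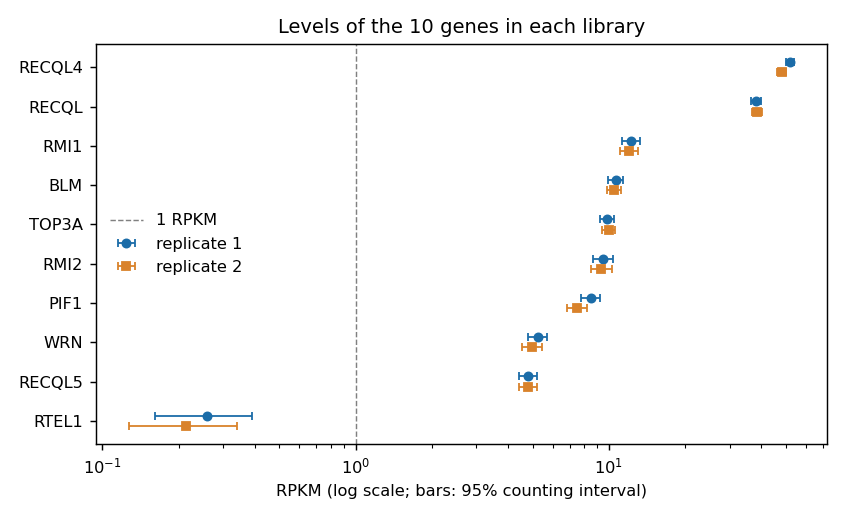
Levels of the 10 genes in each library, in RPKM on a log axis, with replicate 1 as circles, replicate 2 as squares and bars for the 95% counting interval. RECQL4 (52.0 and 48.2 RPKM) and RECQL stand above the others, and RTEL1 (0.258 and 0.215 RPKM) alone lies left of the dashed line at 1 RPKM.

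RECQL4 was the highest of the RecQ helicases in the deposited values, an order that turns with the exonic length used, as given under RECQL. Its protein carries an amino-terminal region related to the yeast replication initiation factor Sld2, and its loss causes Rothmund-Thomson syndrome. The gene lies on chromosome 8 from 144511288 to 144517845 (minus strand, GENCODE release 29 on GRCh38) and spans 6558 bases, the shortest span of the 10. RECQL4 reached 52.0 RPKM in replicate 1 and 48.2 RPKM in replicate 2, a mean of 50.1 ± 2.7 RPKM, from 2916 and 2656 reads. Replicate 1 was the higher library for this gene, and 95.8% of all entries lay below its mean.

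RECQL, also called RECQ1, promotes the restart of reversed forks. It lies on chromosome 12 from 21468911 to 21501669 (minus strand) and had 38.0 RPKM in replicate 1 and 38.6 RPKM in replicate 2, a mean of 38.3 ± 0.40 RPKM, from 1900 and 1898 reads. The libraries were nearly equal, and 93.8% of entries lay below the mean. RECQL4 was 1.31 times as high as RECQL, and its lower value stayed above both values of RECQL. Of the 3778 annotated exonic bases of RECQL, 1566 (41.5%) lie in exons of PYROXD1 on the opposite strand, a gene listed at 1.44 and 1.54 RPKM. Whether the authors' counting used strand is not given in the sources used here. With the same reads divided by the bases that no other annotated gene shares, a setting chosen after the data were seen, RECQL came to 65.4 RPKM and RECQL4 to 52.6 RPKM, so the order of the top pair depends on how shared exons were counted.

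BLM, the helicase lost in Bloom syndrome, was the middle one of the RecQ family. It lies on chromosome 15 from 90717327 to 90816165 (plus strand) and had 10.6 RPKM in replicate 1 and 10.5 RPKM in replicate 2, from 937 and 911 reads. No exonic base of BLM is shared with another annotated gene.

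WRN, the family member that also carries an exonuclease domain and is lost in Werner syndrome, had 5.24 RPKM in replicate 1 and 4.98 RPKM in replicate 2, a mean of 5.11 ± 0.19 RPKM. It lies on chromosome 8 from 31033801 to 31173769 (plus strand), and its values rest on 555 and 519 reads. RECQL5, which binds RNA polymerase II, had 4.79 RPKM in replicate 1 and 4.80 RPKM in replicate 2, from 556 and 548 reads. It lies on chromosome 17 from 75626845 to 75667189 (minus strand). In the deposited values WRN was 1.07 times as high as RECQL5. Both values of WRN were above both of RECQL5, but the counting intervals over both libraries overlapped, from 4.81 to 5.43 RPKM for WRN and from 4.52 to 5.09 RPKM for RECQL5. With the same reads divided by the exonic length annotated in GENCODE, WRN came to a mean of 7.26 RPKM, and RECQL5 stayed at 4.80 RPKM. That length is shorter for WRN, so its value is an upper limit, as given under the BTR subunits. Of the exonic bases of RECQL5, 17.3% lie in exons of SMIM5 (0.133 and 0.0600 RPKM) and 0.844% in exons of SAP30BP (11.0 and 11.3 RPKM), both on the opposite strand. For 3 further genes the exons on the opposite strand belong to loci not listed under their GENCODE names: AC009563.1 over 2.04% of WRN, AC084125.4 over 4.67% of RECQL4 and the pseudogene AC099489.2 over 7.16% of RMI2. The levels of these loci are therefore unknown.

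The 4 BTR subunits had similar levels, from 9.42 RPKM for RMI2 to 12.1 RPKM for RMI1, a 1.29-fold range of means. RMI1, which stabilises the open gate of the topoisomerase, had 12.2 RPKM in replicate 1 and 12.0 RPKM in replicate 2, a mean of 12.1 ± 0.13 RPKM. BLM averaged 10.6 ± 0.092 RPKM. TOP3A, a type IA topoisomerase that passes one strand of DNA through another, had 9.85 RPKM in replicate 1 and 9.99 RPKM in replicate 2, a mean of 9.92 ± 0.10 RPKM. RMI2, the small partner of RMI1, had 9.48 RPKM in replicate 1 and 9.36 RPKM in replicate 2, a mean of 9.42 ± 0.089 RPKM. Relative to BLM in the same library, RMI1 stood at 1.15 in each, TOP3A at 0.925 and 0.951, and RMI2 at 0.891 and 0.890. The SD was between 0.871% and 1.05% of the mean for all 4 subunits, which is less than counting error. For RMI2, from 453 and 440 reads, the counting interval in replicate 1 was 8.63 to 10.4 RPKM.

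The order within the complex was not firm. The values of neighbouring subunits did not overlap between the libraries. The counting intervals did overlap between BLM (10.1 to 11.1 RPKM) and TOP3A (9.50 to 10.3 RPKM), and between TOP3A and RMI2 (8.81 to 10.1 RPKM). The exonic length behind the deposited values also differed between genes in how it matched the annotation. It was 8224 bases for TOP3A, or 127% of the 6476 bases in GENCODE release 29, and 8000 bases for WRN, or 142% of 5634 bases. For the other 8 genes it was between 99.4% and 100.03% of the annotated length. With the same reads divided by the annotated length, TOP3A came to 12.6 RPKM, above the other subunits, at 1.18 and 1.21 relative to BLM. WRN came to 7.26 RPKM. Reads from bases outside the annotated exons could not be taken out. The shorter length therefore raised TOP3A and WRN by construction, and both values are upper limits.

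The sequence before the start site is shown for BLM, TOP3A and RMI1, whose levels were alike, and for RTEL1, the lowest gene. The sequences are from RefSeq on GRCh38.p14, run in the direction of the gene and leave out bases that lie in an annotated exon. The stretches are chr15:90717142-90717326 (plus strand) for BLM, chr17:18315008-18315244 (minus strand) for TOP3A, chr9:83980270-83980358 (plus strand) for RMI1 and chr20:63657683-63657809 (plus strand) for RTEL1. Capitals mark matches, on either strand, to the CCAAT box, to the GC box GGGCGG or to the E2F-like motif TTTNNCGC, and no different motifs overlap.
BLM: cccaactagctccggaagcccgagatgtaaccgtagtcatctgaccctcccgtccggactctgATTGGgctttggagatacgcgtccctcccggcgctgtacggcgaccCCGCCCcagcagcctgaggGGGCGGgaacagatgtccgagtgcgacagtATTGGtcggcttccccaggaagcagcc
TOP3A: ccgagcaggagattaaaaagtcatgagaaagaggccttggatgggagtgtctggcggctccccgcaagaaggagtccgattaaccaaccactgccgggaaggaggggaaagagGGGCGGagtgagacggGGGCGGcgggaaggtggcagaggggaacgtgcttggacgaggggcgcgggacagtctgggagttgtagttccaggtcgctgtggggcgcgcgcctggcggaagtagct
RMI1: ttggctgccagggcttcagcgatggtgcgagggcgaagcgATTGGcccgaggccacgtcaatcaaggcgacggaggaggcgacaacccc
RTEL1: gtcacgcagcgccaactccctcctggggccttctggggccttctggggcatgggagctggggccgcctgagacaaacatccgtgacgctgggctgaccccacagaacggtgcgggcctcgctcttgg
The printed BLM stretch held 2 CCAAT and 2 GGGCGG matches, that of TOP3A 2 GGGCGG matches, that of RMI1 1 CCAAT match and that of RTEL1 none. These 3 motifs, with the CHR-like motif TTTGAA and the TATA box TATAAA, were searched on either strand in whole windows from 250 bases before to 50 bases after each start, which were at hand for 7 of the 10 genes in 9 windows. CCAAT was found for BLM, PIF1, RECQL, RECQL5 and RMI1, in 5 of the 9 windows, and in 34.6% of all 35116 windows. GGGCGG was found for BLM, RECQL5, RMI1, RTEL1 and TOP3A, in 5 of the 9 windows, and in 45.0% of all windows. TTTNNCGC was found for RMI1 and RTEL1, in 2 of the 9 windows (6.89% of all windows). TTTGAA was found for PIF1, in 1 of the 9 windows (15.2% of all windows), and TATAAA for none of the 7 genes (11.5% of all windows). A match here is one of letters, and no binding was measured.

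PIF1 lay just below the BTR subunits. It is the human member of a helicase family best known from yeast and unwinds DNA with the opposite polarity to the RecQ enzymes. It lies on chromosome 15 from 64815632 to 64825668 (minus strand) and had 8.49 RPKM in replicate 1 and 7.49 RPKM in replicate 2, a mean of 7.99 ± 0.71 RPKM, from 523 and 454 reads. Its SD was 8.87% of the mean, the largest after RTEL1. In the deposited values PIF1 was 1.56 times as high as WRN, and RMI2 was 1.18 times as high as PIF1, with no overlap of values or counting intervals in either case. The step to WRN may turn with the exonic length used. With the annotated length WRN came to 7.45 RPKM in replicate 1 and 7.08 RPKM in replicate 2, just below both values of PIF1. With bases shared with other genes also left out, PIF1 was 1.08 times as high as WRN, and their values overlapped. Both settings keep all reads of WRN over a shorter length, so they give upper limits for WRN.

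RTEL1, an iron-sulphur helicase needed at telomeres and during replication, was the lowest of the 10 genes. It lies on chromosome 20 from 63657810 to 63696253 (plus strand) and had 0.258 RPKM in replicate 1 and 0.215 RPKM in replicate 2, a mean of 0.236 ± 0.031 RPKM. These values rest on 22 and 18 reads, and the counting interval over both libraries was 0.169 to 0.322 RPKM. Of all entries 17.5% lay below its mean, and RECQL5, the next gene up, was 20.3 times as high.

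RTEL1 was also the only one of the 10 with exons annotated in another gene on the same strand. Of its 6440 exonic bases, 4522 (70.2%) lie in exons of RTEL1-TNFRSF6B, a readthrough gene on chromosome 20 from 63659300 to 63698684. RTEL1-TNFRSF6B had 0.366 RPKM in replicate 1 and 0.439 RPKM in replicate 2, from 44 and 52 reads. How reads that lie in both genes were assigned is not given in the sources used here, and the length behind the deposited RTEL1 value, 6440 bases, holds the shared part. Divided by the 1918 unshared bases, the same reads gave 0.867 RPKM in replicate 1 and 0.721 RPKM in replicate 2, still below 1 RPKM, and RECQL5 was then 7.39 times as high as RTEL1. The reads of both genes together, 66 in replicate 1 and 70 in replicate 2, gave 0.453 and 0.488 RPKM over their 11011 merged exonic bases. That length suits shared reads assigned once, to either gene. If reads that lie in both genes were left out, it is too long and the merged values are too low. Among protein-coding entries with at least 50% of their exonic bases shared on the same strand, 56 of 206 (27.2%) were expressed, with a median of 0.399 RPKM. Among the other 15379 protein-coding entries 73.5% were expressed, with a median of 4.93 RPKM. The part of this sharing in the RTEL1 value was not tested. At 1 CPM, a unit scaled to library size alone, RTEL1 passed with 1.66 CPM in replicate 1 and 1.38 CPM in replicate 2, a level that 79.5% of entries with recovered reads passed.

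**Figure D2:**
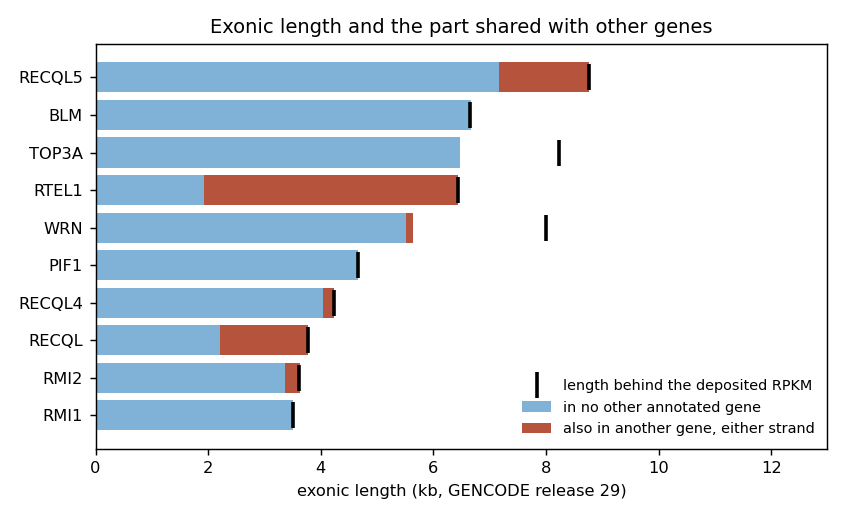
Annotated exonic length of each gene in kb, split into bases in no other annotated gene and bases that also lie in an exon of another gene on either strand, with a black mark for the length behind the deposited RPKM. RTEL1 has the largest shared part (70.2%), RECQL follows (41.5%), and the marks of TOP3A and WRN lie beyond their bars.

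Ordered by the mean of the deposited values, the 10 genes form 9 neighbouring pairs, and in each of the 9 both values of the higher gene exceeded both values of the lower one. With 2 libraries such a gap is a weak statement. By counting intervals over both libraries 6 of the 9 pairs were apart, and BLM with TOP3A, TOP3A with RMI2, and WRN with RECQL5 were not. The largest steps were those from RECQL5 to RTEL1 (20.3 times) and from RECQL to RMI1 (3.16 times). With the unshared length they were 7.39 times from RECQL5 to RTEL1 and 4.17 times from RECQL4, then below RECQL, to TOP3A. The TOP3A value in that setting is an upper limit, as given under the BTR subunits.

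**Figure D3:**
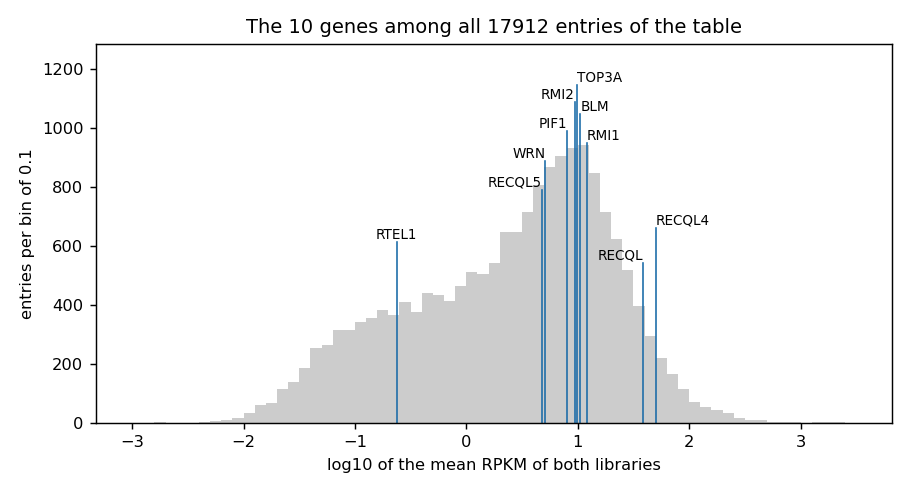
Mean RPKM of both libraries for all 17912 entries as a histogram on a log10 scale, with a line for each of the 10 genes (line heights only separate the labels). RTEL1 lies in the lower part with 17.5% of entries below it, 7 genes lie near the peak, and RECQL and RECQL4 lie in the upper tail.

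The libraries were compared gene by gene by exact binomial tests (2-sided) of the recovered reads, with Benjamini-Hochberg adjustment over the 11834 genes tested. This compares 2 libraries of 1 group and no conditions. None of the 9 expressed genes differed at an adjusted p under 0.05, where 1.72% of tested genes did, and 1 of 9 had an unadjusted p under 0.05, where 12.0% did. That gene was RECQL4, with 52.0 RPKM in replicate 1 and 48.2 RPKM in replicate 2 and a log2 ratio of 0.10 ± 0.04 (replicate 1 over replicate 2, counting SE). Its adjusted p in the exact binomial test was 0.171. PIF1 had a log2 ratio of 0.17 ± 0.09 and an adjusted p of 0.456 in the same exact test. The median size of the log2 ratio was 0.03 over the 9 genes and 0.07 over all tested genes. Tested genes include many with far fewer reads than these 9, and the medians were not matched for depth. They do not show that the 9 genes varied less. RTEL1, below the level for this test, had a log2 ratio of 0.26 ± 0.46, so a difference of that size was not detectable at this depth.

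**Figure D4:**
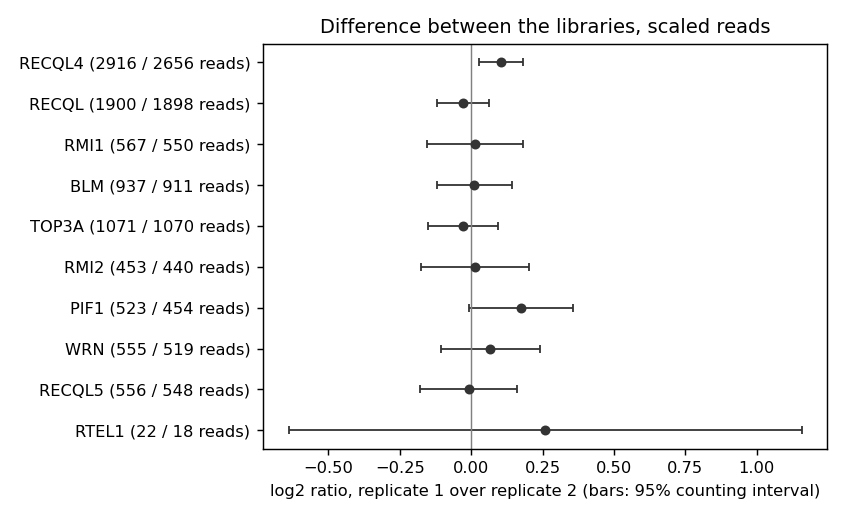
Log2 ratio of replicate 1 over replicate 2 for each gene, with bars for the 95% counting interval and the reads of replicate 1 and replicate 2 beside each name. The bar of RECQL4 (0.10) lies right of 0, those of the other 9 genes cross 0, and that of RTEL1 is the widest.

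Of the genes that work with these helicases, in 6 lists, 58 of 60 listed genes passed 1 RPKM in both libraries, where 66.7% of all entries and 72.9% of protein-coding entries did. Their median was 10.8 RPKM, against 3.53 RPKM over all entries. In the exact binomial test none of the 58 differed between the libraries at an adjusted p under 0.05, where 1.72% of tested genes did. All 12 partners of the BTR complex passed, with a median of 14.8 RPKM. Highest were CENPX, a histone-fold partner of the fork translocase FANCM, at 47.5 ± 3.6 RPKM and RPA2, a subunit of the single-strand binding protein RPA, at 41.8 ± 0.54 RPKM. CENPS, which pairs with CENPX, was lowest in the deposited values at 2.64 ± 0.0013 RPKM. The part of exons shared with other genes in the values of CENPS and the other list genes was not tested. The step between CENPX and CENPS may therefore turn with how shared exons were counted. FANCM itself was at 4.71 ± 0.16 RPKM, and ERCC6L, the translocase of ultrafine bridges also known as PICH, at 18.8 ± 0.71 RPKM.

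The resolvases cut the joined molecules that the BTR complex dissolves. All 7 listed members passed, with a median of 5.77 RPKM, below each of the 4 BTR subunits. ERCC1 was highest at 15.6 ± 0.70 RPKM and EME1, the partner of MUS81, next at 7.64 ± 0.32 RPKM. EME2 was lowest at 2.28 ± 0.25 RPKM. SLX1A and SLX1B were not listed, so their levels are unknown and the median leaves them out. MUS81 stood at 5.77 ± 0.48 RPKM, SLX4 at 5.41 ± 0.22 RPKM and GEN1 at 6.19 ± 0.34 RPKM.

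Of 19 other DNA helicases and translocases 18 passed, with a median of 8.86 RPKM. DHX9, a helicase of RNA and of RNA-DNA hybrids, was highest at 67.3 ± 0.76 RPKM, and the fork remodeller HLTF followed at 19.5 ± 0.0031 RPKM. HELB, which acts on RPA-coated DNA, was lowest and just under the level in replicate 1 (0.926 RPKM) and replicate 2 (0.941 RPKM). The closest relatives of RTEL1 by their iron-sulphur helicase fold were higher than RTEL1: BRIP1 was at 17.8 ± 0.0041 RPKM, DDX11 at 8.18 ± 0.39 RPKM and ERCC2 at 7.42 ± 0.63 RPKM. DDX11 has near-identical copies in the genome, so its reads are uncertain.

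In the deposited values TOP3A stood apart from its paralogue. TOP3B, the other type IA topoisomerase, had 0.0683 RPKM in replicate 1 and 0.0810 RPKM in replicate 2, from 6 and 7 reads, and its partner TDRD3 was at 1.28 ± 0.034 RPKM. In both libraries TOP3A was above TOP3B, with no overlap. The part of read assignment and shared exons in the low TOP3B value was not tested. Of the 6 genes in the topoisomerase list 5 passed, with a median of 26.8 RPKM, led by TOP2A, which decatenates sister chromatids, at 171 ± 3.0 RPKM and TOP2B at 41.0 ± 0.11 RPKM.

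All 10 partners of WRN, RECQL4, RTEL1 and PIF1 passed, with a median of 14.3 RPKM. The sliding clamp gene PCNA led at 216 ± 5.3 RPKM, followed by XRCC6, a Ku subunit that binds WRN, at 178 ± 3.2 RPKM. The telomere protein gene TERF1 was lowest at 2.28 ± 0.21 RPKM. MCM10, a replication initiation partner of RECQL4, was at 26.2 ± 1.2 RPKM. The last list holds 6 factors that assemble cytosolic iron-sulphur clusters or pass them on to proteins such as RTEL1. All 6 passed, with a median of 14.2 RPKM. They ran from CIAO3 at 1.94 ± 0.21 RPKM to CIAO1 at 31.2 ± 0.19 RPKM and CIAO2B at 36.6 ± 3.8 RPKM.

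**Figure D5:**
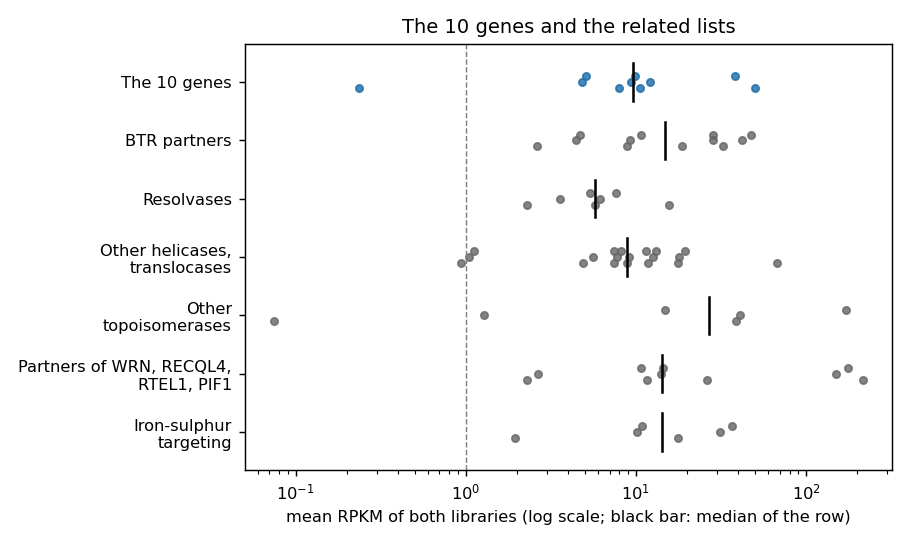
Mean RPKM of both libraries on a log axis for the 10 genes and for each related list, 1 point per gene, with black bars for row medians and a dashed line at 1 RPKM. RTEL1 in the top row, HELB (0.933 RPKM) and TOP3B (0.0746 RPKM) lie left of the line, and every other listed gene lies right of it.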

How the data were processed

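Per the labels' protocols, mRNA was captured on oligo(dT) beads, fragmented, reverse transcribed from random hexamers, and read from DNA nanoballs. The deposited values are RPKM, per the file headers, in 1 column per library. Trim Galore, HISAT2 and featureCounts, with hg38 and GRCh38.p13, are named in the submitters' processing notes. For versions, annotation, strand use and gene filters, no statement is given in the sources used here.

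Of 18141 symbols, 58 with several rows were left out, and symbols sharing both values counted once, giving 17912 entries, none with a value of 0. Reads were recovered from the ratio of both columns (100% were ratios of whole numbers within 2e-13), and each gene's factor was limited to those that make both reads and exonic length whole numbers. Among these the factor that brought the length nearest that of GENCODE release 29, matched for 96.4% of symbols, was taken, and for WRN and TOP3A it was the smallest such factor. For 91.0% of matched genes the length fell within 10% of the annotated one, which the choice partly builds in. Genes without a match were not tested. Scaling was by trimmed mean of M values (0.995 for replicate 2), and the procedure was tested on simulated data.

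The 10 genes, the lists, the 1 RPKM level and the tests were chosen with earlier results of these data known. From each list the highest 2, the lowest, genes under the level and unlisted genes are named; some genes of the lists are not reported here. FANCM, ERCC6L, MUS81, SLX4, GEN1, BRIP1, DDX11, ERCC2, TDRD3, MCM10 were named for their roles after their values were seen, as were the motifs searched. Exon sharing took every annotated gene with at least 1 shared base. Genes of like pattern were not sought, since 2 libraries of 1 group give no pattern. Alternatives covered the level, the unit, the scaling, the length, the pseudocount and single libraries. The software was Python 3.11.15 with numpy 2.4.6, scipy 1.17.1, pandas 2.3.3 and matplotlib 3.10.9.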

Additional observations from a re-analysis of the deposited data

How the results depend on the processing

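No paired analysis was possible because both libraries belong to 1 group. The number of expressed genes among the 10 (9) was 9 at 0.5 RPKM (73.9% of all entries), 7 at 5 RPKM (42.8%), where WRN and RECQL5 also failed, 10 at 1 CPM (79.5%), 9 at 1 TPM (81.6%) and 9 with either library left out (67.7% without replicate 1, 67.8% without replicate 2). The miss of RTEL1 at 1 TPM was narrow, with 1.20 TPM in replicate 1 and 0.999 TPM in replicate 2. None of the 9 genes tested, which leave out RTEL1, differed between the libraries with scaling by totals, at 0.01 or with a fold of 1.5 required. Of all 11834 tested genes these settings called 199, 112 and 7. None of the 10 genes differed with all 15434 entries of at least 10 reads tested, of which 201 were called. At such low shares a call among so few genes was unlikely under any of these settings. All 30 alternative counts over the 6 lists stayed within 1.5 times of the main count, a wide margin. At 5 RPKM, which 42.8% of all entries passed, every list lost genes. In the order given above, the counts fell from 12 to 9, 7 to 5, 18 to 15, 5 to 4, 10 to 8 and 6 to 5. The number of neighbouring pairs apart (9) was 9 with the annotated length, where TOP3A passed RMI1 and BLM, 8 with the unshared length, chosen after seeing the data, where RECQL passed RECQL4, and 6 by counting intervals. The TOP3A value with the annotated length is an upper limit, since its reads were kept over a shorter length. The unshared length moved RTEL1 to 0.794 RPKM and RECQL to 65.4 RPKM. A pseudocount of 0.1 in place of 1 moved log2 levels, for RTEL1 to -1.57, by construction. Depth limits RTEL1 most, at 22 and 18 reads.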
